A study of Homo sapiens with 4 samples.

Results

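The genes described here encode the origin recognition complex (ORC), and they were found by their Ensembl identifiers, which map in GENCODE v44 to ORC1, ORC2, ORC3, ORC4, ORC5 and ORC6. They are 6 of the 63677 genes in the count table, and all 6 passed the filter on low counts, which kept 14645 genes. The RNA was nuclear and came from HCT116, an established line of human colorectal carcinoma. The cells had carried pcDNA3.1-ORC1-3xFLAG, a plasmid that encodes ORC1 with a FLAG epitope tag, for 48 h after transfection. For 2 RIP replicates, RNA recovered by native immunoprecipitation with the FLAG antibody M2 (ORC1-FLAG IP) was set against RNA of the nuclear lysate (Input). All 4 libraries came from cells that carried the plasmid, and no untransfected cells and no control antibody were analysed here, so RNA that sticks to beads or antibody was not measured apart. Expression of the plasmid was transient, and the study's methods call its ORC1 sequence codon-optimised. How many reads of such a sequence would align to the ORC1 gene was not measured here.

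ORC marks the sites where DNA replication can begin. ORC1 to ORC5 are related proteins of the AAA+ family that close into a ring around DNA, and ORC6, a smaller protein unlike the others in sequence, helps the complex to load the MCM helicase together with CDC6 and CDT1. ORC1 is the subunit that comes and goes during the cell cycle in human cells, whereas ORC2 to ORC5 form a steadier core. The question asked of these libraries is which nuclear RNAs are recovered with ORC1, and here it is put to the mRNAs of ORC1 itself and of its partner subunits.

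Of the 6 subunit mRNAs, that of ORC3 was enriched in the IP, 2.76-fold over Input. The mRNAs of ORC2, ORC4 and ORC5 were lower in both IP libraries than in both Inputs, to 0.70, 0.54 and 0.63 of Input, but none of the 3 was called depleted. ORC6 mRNA was higher in both IP libraries, 1.39-fold, and was not called. ORC1 RNA was 3.32-fold higher in IP than in Input in replicate 1 and 3.66-fold higher in replicate 2. It was called only when the replicate was part of the model. How much of the ORC1 RNA came from the plasmid was not measured. A gene was called enriched or depleted at a Benjamini-Hochberg adjusted p below 0.05 in edgeR's quasi-likelihood test over all genes tested, provided that IP and Input differed by more than 1 on the log2 scale. By that rule 1 of the 6 subunits was enriched, where 10.5% of all tested genes were, and 0 of 6 were depleted, where 8.3% of all tested genes were. The 3 lower subunits had unadjusted p values below 0.05 in edgeR, and DESeq2 and limma voom also called 0 of 6 depleted. Other settings did call them. When libraries were scaled to their totals only, ORC2, ORC4 and ORC5 were depleted and ORC3 was no longer enriched. In that fit 22.2% of all tested genes were depleted and 2.59% enriched. ORC4 was also depleted with upper-quartile scaling, where 10.5% of all tested genes were. It was depleted too, at -1.11 on the log2 scale, when Input replicate 2 was left out.

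The libraries held 27483148 and 20280445 counts in the IP and 14677002 and 9213877 in the Inputs of replicates 1 and 2. The subunits other than ORC1 held between 307 (ORC5, IP replicate 2) and 2662 counts (ORC3, IP replicate 1). The 5 epithelial markers listed for the line (EPCAM, KRT8, KRT18, KRT19 and CDH1) summed to between 2313 and 4510 CPM, that is, read counts per 1e6 reads with TMM factors of edgeR applied to the library sizes. The 7 markers of blood, fibroblasts, endothelium and liver summed to between 8.36 and 29.4 CPM, nearly all of it COL1A1, and CD3E and PECAM1 were at 0 in every library. Nothing in the labels says that the replicates came from separate cultures, so the p values measure the spread between these libraries.

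The transcripts of the subunits are shown first through a sequence the study dwells on, the repeated triplet GAA. GAAGAAGAA was present in none of the 6 longest transcripts, against 13.6% of the 14265 tested genes with a transcript in GENCODE v44, 36.8% of the enriched and 5.02% of the depleted genes. Its reverse complement TTCTTCTTC, present in 5.29% of tested genes, was also in none of the 6. The shorter GAAGAA, searched on the transcript strand with overlapping matches counted, was in all 6, as it was in 81.6% of tested genes. ORC2 held 7 matches, ORC3 6, ORC4 5, ORC1 3, and ORC5 and ORC6 1 each. The next lines print, from the canonical transcript, every match of ORC3, the enriched subunit, and the first coding match of each of the others for comparison. GAAGAA is in capitals, positions are counted from the A of the start codon, and the genome coordinates of the capitals are those of GRCh38.
ORC3, coding bases 255 to 260, exon 4, plus strand, chr6:87603461-87603466: ttctggattccaGAAGAAttcaagagactt
ORC3, coding bases 1058 to 1063, exon 10, plus strand, chr6:87621424-87621429: cagaagccaaaaGAAGAAtaaattttttat
ORC3, coding bases 1528 to 1533, exon 15, plus strand, chr6:87656917-87656922: gaaaccaaagagGAAGAAgatgcttctggg
ORC3, coding bases 1619 to 1624, exon 16, plus strand, chr6:87657946-87657951: tgaaggagttaaGAAGAAgtaagaagcaaa
ORC3, coding bases 1852 to 1857, exon 18, plus strand, chr6:87664761-87664766: gcactgaaaagcGAAGAAggctgcattccg
ORC3, coding bases 2008 to 2013, exon 19, plus strand, chr6:87665811-87665816: tctgcaacctcaGAAGAAatgaatgaaatt
ORC1, coding bases 486 to 491, exon 5, minus strand, chr1:52396276-52396281: atcctggaatgaGAAGAAattcaggccact
ORC2, coding bases 105 to 110, exon 4, minus strand, chr2:200957529-200957534: aggagctaaattGAAGAAggagcgagcgca
ORC4, coding bases 262 to 267, exon 5, minus strand, chr2:147958825-147958830: ctcatggaaataGAAGAAgtgagtgaaaat
ORC5, coding bases 783 to 788, exon 8, minus strand, chr7:104183979-104183984: tgaacctcatttGAAGAAagctatgcagac
ORC6, coding bases 697 to 702, exon 7, plus strand, chr16:46697523-46697528: acacaggattatGAAGAAtggaaaagaaaa

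Per kilobase of canonical transcript, ORC3 held 2.40 GAAGAA matches and ORC2 1.63, both above the median of 0.693 over the 12542 tested protein-coding genes. ORC1 held 0.961, and ORC6 (0.619), ORC4 (0.611) and ORC5 (0.520) were below that median. The matches of ORC1 are those of the annotated transcript, and the codon-optimised sequence of the plasmid was not searched. All matches of ORC1, ORC2, ORC3, ORC5 and ORC6 lay in the coding sequence, and those of ORC4 did so in 1 of 4 cases, with the others in the long last exon. The densest transcript was that of the enriched subunit, but the second densest, ORC2, was lower in IP than in Input. These matches describe the letters of the transcripts and say nothing about contacts of the protein.

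ORC1, the largest subunit and the one that was tagged, lies on chromosome 1 from 52372829 to 52404423 on the minus strand (ENSG00000085840), with 17 exons in its canonical transcript and a coding sequence of 2583 bases. It held 5820 and 59163 counts in Input replicates 1 and 2, and 23064 and 326098 in IP replicates 1 and 2. In CPM these were 333 and 5063 in Input and 1108 and 18551 in IP. Replicate 2 was high in both groups and replicate 1 low, so that Input replicate 2 stood above IP replicate 1 and the groups overlapped.

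ORC1 took 0.0397% of the counts of Input replicate 1 (exact Clopper-Pearson 95% confidence interval 0.0386 to 0.0407) and 0.642% of those of Input replicate 2 (0.637 to 0.647). In IP the shares were 0.0839% (0.0828 to 0.0850) and 1.61% (1.60 to 1.61). Reads carry no molecular identifiers, so these intervals cover counting error only. By CPM, ORC1 ranked 374 and 7 among the tested genes in Input replicates 1 and 2, and 162 and 1 in the IP. In IP replicate 2 no tested gene had a higher level than ORC1.

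Replicate 2 exceeded replicate 1 in ORC1 RNA 15.2-fold in Input and 16.7-fold in IP. The other subunits ran from 0.613 (ORC3) to 0.916 (ORC6) in Input and from 0.682 (ORC3) to 0.925 (ORC2) in IP, and the median over all tested genes was 1.01 and 0.973. The nearest tested genes of the locus did not share the difference, with 1.18 in Input and 0.931 in IP for CC2D1B and 0.636 and 0.563 for PRPF38A, which begins 178 bases from ORC1 on the opposite strand. Of the 14645 tested genes, 9, ORC1 among them, were at least 10-fold higher in replicate 2 in both groups. In bulk lysates, fewer cells with the plasmid and less ORC1 RNA per cell cannot be told apart. Only counts by gene were used here, without read sequences. The shares of plasmid and chromosomal gene in the ORC1 RNA were therefore not measured. The processed pseudogene ORC1P1 held 0 counts in all 4 libraries.

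Within a replicate, the ORC1 log2 ratio of IP to Input, with a pseudocount of 0.5 CPM, was 1.73 and 1.87, a difference of 0.14 between replicates whose levels differed more than 10-fold. Because the edgeR model with group alone counts the difference between replicates as error, its estimate on the log2 scale was 1.87 ± 1.42 (SE, n = 2 per group, 95% confidence interval -1.49 to 5.22, edgeR adjusted p = 0.374), and ORC1 was not called. With the replicate as a block, which follows the labels in pairing each IP with its own Input, it was 1.80 ± 0.21 (SE, edgeR adjusted p = 3.16e-06) and ORC1 was enriched. With the block 13.4% of all tested genes were enriched and as many depleted, all 6 subunits had an adjusted p below 0.05, and so did 54.3% of tested genes. Without it 2 of the 6, ORC3 and ORC4, and 22.9% of tested genes had one. In that fit 98.3% of tested genes had a lower log2 fold change than ORC1. The model with group alone rested on single libraries for this gene. The value fell to -1.22 when IP replicate 2 was left out and to 1.01 when Input replicate 1 was. It stood at 2.85 when IP replicate 1 was left out and at 4.75 when Input replicate 2 was, and ORC1 was called in none of these 4 fits.

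**Figure D1:**
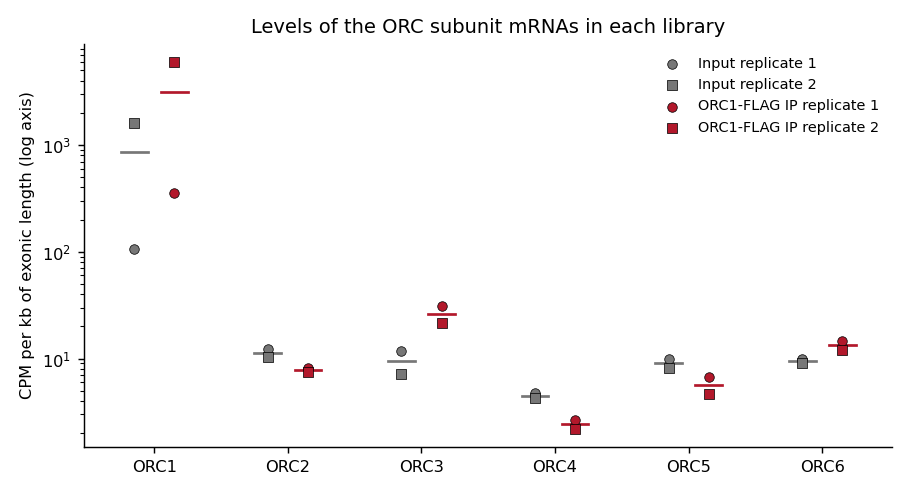
TMM-scaled CPM per kilobase of exonic length (log axis) of the 6 ORC subunit mRNAs in each library, with Input in grey and ORC1-FLAG IP in red, circles for replicate 1, squares for replicate 2 and bars at the group mean. ORC1 lies between 107 and 5944 with replicate 2 far above replicate 1, whereas the other subunits lie between 2.21 and 31.2 with the replicates close together.

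To compare subunits with each other, levels were taken per kilobase of the union of annotated exons. For ORC1 this was 3121 bases of the chromosomal gene, and the length of the plasmid insert was not used. In Input, ORC1 was at 107 and 1622 CPM per kilobase, 10.7-fold and 198-fold the median of the 5 partner subunits in the same library. In IP it was 43.4-fold and 786-fold that median. The partners came next in the order ORC2 (12.2 and 10.3 in Input replicates 1 and 2), ORC6 (9.96 and 9.12), ORC3 (11.8 and 7.21), ORC5 (9.90 and 8.20) and ORC4 (4.72 and 4.29). The 2 libraries of ORC3 overlapped those of ORC6, of ORC5 and of ORC2, so ORC3 did not differ from these beyond the spread. ORC4 was below every other subunit. The order depended on the length used: per kilobase of canonical transcript ORC6 led the partners with 26.6 and 24.3, and ORC2 (16.7 and 14.1), first among them per kilobase of exons, overlapped ORC3 (19.3 and 11.8) and ORC5 (19.2 and 15.9).

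In IP the partners were spread further apart, in the order ORC3 (31.2 and 21.3 CPM per kilobase of exons), ORC6 (14.6 and 11.9), ORC2 (8.17 and 7.56), ORC5 (6.71 and 4.69) and ORC4 (2.66 and 2.21). No neighbours in this order overlapped. ORC4 was the lowest subunit and ORC1 the highest in both groups and with each of the 3 lengths tried. For ORC1 these 3 lengths are the same. Per kilobase of canonical transcript, ORC3 and ORC6 overlapped in IP, as did ORC5 and ORC2.

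ORC3, a core subunit that binds ORC2 in the ring, lies on chromosome 6 from 87590067 to 87667453 on the plus strand (ENSG00000135336), with 20 exons and a coding sequence of 2133 bases. Its mRNA held 48.2 and 29.5 CPM in Input replicates 1 and 2, and 128 and 87.2 CPM in IP. Both IP libraries were above both Inputs, and replicate 1 was the higher of the replicates in each group. The log2 ratios were 1.40 and 1.55, and the fitted log2 fold change was 1.47 ± 0.32 (SE, n = 2 per group, 95% confidence interval 0.70 to 2.23, edgeR adjusted p = 0.0229). ORC3 had an adjusted p below 0.05 in all 14 fits, and its value ranged from 0.86, too small to be called, when libraries were scaled to their totals only, to 1.91 without Input replicate 1. Without Input replicate 2 it was 1.01 and still called.

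ORC2, the partner of ORC3 in the core, lies on chromosome 2 from 200908977 to 200963680 on the minus strand (ENSG00000115942) and has 18 exons. Its mRNA held 71.4 and 60.3 CPM in Input and 47.6 and 44.1 CPM in IP. The Inputs were the higher libraries and the groups did not overlap. The log2 ratios were -0.58 and -0.45, and ORC2 was not called, at a log2 fold change of -0.52 ± 0.22 (SE) with an adjusted p = 0.129 in edgeR.

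ORC4, an ATP-binding subunit of the ring, lies on chromosome 2 from 147930396 to 148021604 on the minus strand (ENSG00000115947). Its canonical transcript has 6547 bases, of which 1308 are coding and 5114 form the 3' untranslated region. It held 42.1 and 38.3 CPM in Input and 23.7 and 19.7 CPM in IP, again with both IP libraries below both Inputs. The log2 ratios were -0.82 and -0.94, and the log2 fold change was -0.89 ± 0.23 (SE, 95% confidence interval -1.42 to -0.36, edgeR adjusted p = 0.0325). The adjusted p passed, but the size fell short of the fold change minimum. ORC4 was called depleted with upper-quartile scaling (-1.06), when libraries were scaled to their totals only (-1.50) and when Input replicate 2 was left out (-1.11). Its adjusted p in edgeR missed 0.05 without the filter (0.0744) and when Input replicate 1 (0.0583), IP replicate 1 (0.107) or IP replicate 2 (0.216) was left out.

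ORC5, which also binds ATP, lies on chromosome 7 from 104126341 to 104208047 on the minus strand (ENSG00000164815) and has 14 exons. Its mRNA held 36.9 and 30.6 CPM in Input and 24.97 and 17.5 CPM in IP, with no overlap between the groups. The log2 ratios were -0.55 and -0.79, and ORC5 was not called, at -0.67 ± 0.26 (SE) in the fit, with an adjusted p = 0.107 in edgeR. Leaving out 1 library moved it between -0.95 (without Input replicate 2) and -0.38 (without IP replicate 2).

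ORC6 lies on chromosome 16 from 46689643 to 46698394 on the plus strand (ENSG00000091651) and has the shortest coding sequence of the 6, 756 bases in 7 exons. Its mRNA held 42.9 and 39.3 CPM in Input and 63.0 and 51.4 CPM in IP, so both IP libraries were above both Inputs. The log2 ratios were 0.55 and 0.38, and the log2 fold change of 0.48 ± 0.23 (SE, 95% confidence interval -0.06 to 1.01, edgeR adjusted p = 0.167) was not called. With totals only as the scale it was -0.13, on the other side of 0.

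**Figure D2:**
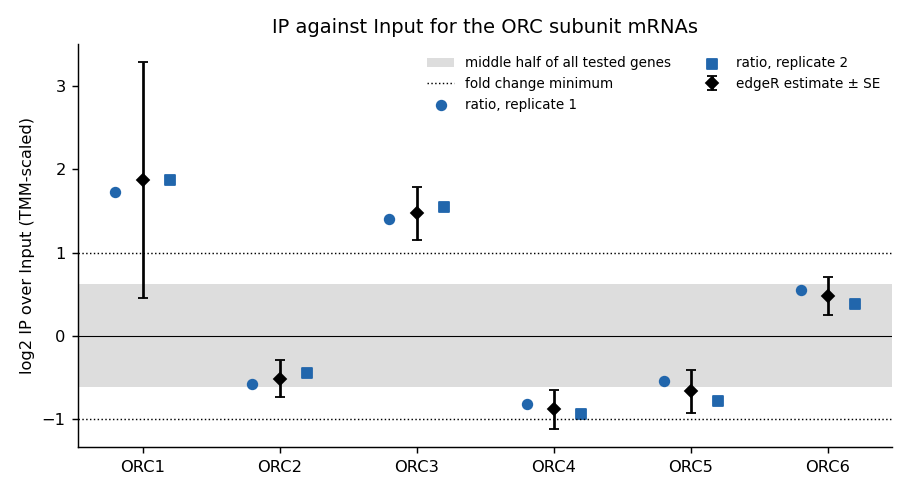
Log2 ratio of IP to Input for each ORC subunit mRNA, with blue circles and squares for replicates 1 and 2, black diamonds for the edgeR log2 fold change with bars of 1 SE, a grey band for the interquartile range of all tested genes (-0.62 to 0.62) and dotted lines at the fold change minimum of 1 and -1. The replicate ratios of each subunit lie within 0.24 of each other, and ORC1 alone has an SE (1.42) several times that distance.

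The groups of libraries did not overlap for 5 of the 6 subunits, all but ORC1. This was common, as it held for 65.1% of all tested genes. Ratios between 2 subunits within a library do not depend on how libraries are scaled to each other, and they set ORC3 and ORC6 apart from the rest. ORC3 had 1.14 and 0.772 times the counts of ORC4 in Input replicates 1 and 2, and 5.40 and 4.43 times in IP, a 4.72-fold and 5.74-fold change. The ratio of ORC2 to ORC3, its partner in the core, differed between IP and Input by -1.99 and -2.02 on the log2 scale. The ratio of ORC4 to ORC6 differed by -1.38 and -1.35, so that ORC6 too stood higher against ORC4 in both IP libraries. ORC4 and ORC5 kept nearly the same ratio, 1.14 and 1.25 in Input and 0.948 and 1.13 in IP. ORC2 to ORC5 was at 1.94 and 1.97 in Input and 1.91 and 2.52 in IP. With 2 libraries against 2, no exact permutation test of such a ratio can reach 0.05, and none was run.

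Coding length goes with the fold change across all genes of these libraries, so each subunit was set beside the tested protein-coding genes of similar coding length, in 10 classes of equal size. ORC1 and ORC3 fall in class 8 (2064 to 2595 bases, 1253 genes), whose median log2 fold change was 0.45 with quartiles of 0.04 and 0.89. ORC1 lay 1.42 and ORC3 1.02 above that median, and 14.9% of the genes in the class were enriched. ORC2 is in class 7, with a median of 0.28, and differed from it by -0.80, with 9.89% of the class below it. ORC4 and ORC5, nearly equal in coding length at 1308 and 1305 bases, are in class 5 with a median of -0.03, from which they differed by -0.86 and -0.64. ORC6 is in class 2 (561 to 780 bases), where the median was -0.53 and 18.6% of genes were depleted. Its value lay 1.00 above that median, higher than 88.5% of the class. ORC1 and ORC3, the longest in coding sequence, had the highest values of the 6. ORC6, the shortest, left that order, as it was above ORC2, ORC4 and ORC5. These are descriptions over 6 genes that share the same libraries, without a test.

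**Figure D3:**
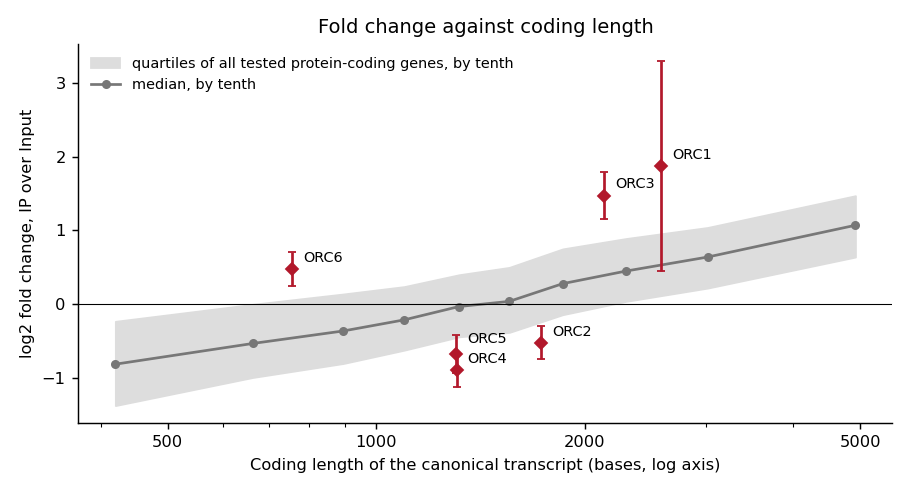
Log2 fold change of IP over Input (vertical axis) against coding length in bases (horizontal log axis), with the median and quartiles of all tested protein-coding genes in each of 10 classes of coding length in grey and the ORC subunits as red diamonds with bars of 1 SE. ORC1, ORC3 and ORC6 lie above the quartile band of their class, and ORC2, ORC4 and ORC5 lie below it.

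The genes around the subunits were looked at because counts near a shared start or a shared exon can mix. The annotated exons of ORC4 share 4.83% of their bases with ACVR2A and 1.76% with MBD5, both on the opposite strand, and those of ORC2 share 4.39% with an unnamed antisense lncRNA gene. ACVR2A and MBD5 were at 0.01 and 0.02 on the log2 scale (edgeR adjusted p = 0.974 and 0.959), apart from the -0.89 of ORC4. The libraries are described as stranded, but the strand setting of the counting is not given in the sources used here. ORC3 starts 38 bases from RARS2, a mitochondrial arginyl-tRNA synthetase gene on the opposite strand, whose log2 fold change was 0.97 (edgeR adjusted p = 0.0322), just short of the fold change minimum. ORC6 starts 124 bases from VPS35, at -0.09 (edgeR adjusted p = 0.851), and ORC1 178 bases from PRPF38A, at 0.54 (edgeR adjusted p = 0.305). ORC1, ORC3, ORC5 and ORC6 shared no annotated exonic base with another gene.

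The libraries were searched for genes whose pattern over the 4 libraries resembled that of ORC1, by the Euclidean distance of log2 CPM centred on its mean, among 10406 tested genes with a symbol and at least 5 CPM on average. The nearest were GSDMB, JUN, AHNAK2, ANGPTL4 and CLUHP3, at distances from 2.10 to 2.43, and their replicate 2 exceeded replicate 1 between 2.86-fold and 6.18-fold, against 15.2-fold and 16.7-fold for ORC1. The other genes counted above as at least 10-fold higher in replicate 2 in both groups were not among these nearest. JUN, a transcription factor subunit, held 23.8 and 96.9 CPM in Input and 51.0 and 177 CPM in IP, a 4.07-fold and 3.46-fold difference between replicates. The mean pattern of ORC2 to ORC6 was almost flat across the groups with members of both signs in it, and its nearest genes (CDK8, MID1, RILPL2, MYL6 and FAM118B) had log2 fold changes between -0.02 and 0.01.

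The subunits were then set beside 33 other genes of origin licensing and firing, in 3 lists of ORC partners and regulators, helicase loading and helicase activation. All 33 were tested, and 12 (36.4%) were enriched, against 10.5% of all tested genes, and 2 (6.06%) depleted, against 8.3%. With totals only as the scale, 3 were enriched and 4 depleted, where 2.59% and 22.2% of all tested genes were. Their median log2 fold change was 0.58, against 0.01 over all tested genes. The median of the 6 subunits was -0.02, and that of the 5 partners without ORC1 was -0.52. Helicase loading, the step that ORC carries out, was the list with the highest median, 1.24. All 9 of its genes were above 0, and 6 (66.7%) were enriched, against 10.5% of all tested genes. MCM3 rose most, from 437 and 377 CPM in Input to 1748 and 1123 in IP (log2 fold change 1.82 ± 0.32, SE, edgeR adjusted p = 0.014), followed by MCM7 (1.45) and GMNN (1.33), the gene of the CDT1 inhibitor geminin. CDC6 and CDT1, the loading factors that act directly with ORC, were at 0.42 and 0.03 and not called.

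Of the 11 ORC partners and regulators, 3 were enriched and 1 was depleted (27.3% and 9.09%, against 10.5% and 8.3% of all tested genes), with a median of 0.54. The depleted share is near that of all genes. The enriched genes were PHIP (1.62), RIF1 (1.52) and KMT5A (1.40), a histone methyltransferase gene. The depleted gene was SKP2, the F-box protein of the ubiquitin ligase that targets ORC1 for degradation, with 63.7 and 32.1 CPM in Input and 19.6 and 16.4 CPM in IP (-1.42 ± 0.35, SE, edgeR adjusted p = 0.0304). LRWD1, which binds ORC on chromatin, was at -0.18 and not called. Of the 13 helicase activation genes, 3 were enriched and 1 was depleted (23.1% and 7.69%, against the same 10.5% and 8.3%), with a median of 0.46. Here too the depleted share is near that of all genes. MCM10, which is needed to set the helicase in motion, had the highest value of the 33, at 2.28 ± 0.30 (SE, edgeR adjusted p = 0.0105). TICRR (1.31) and TOPBP1 (1.30) followed, and GINS1, a small subunit of the GINS complex, was depleted at -1.25 ± 0.29 (SE, edgeR adjusted p = 0.0263).

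Single libraries moved these counts. Fewer of the 33 were enriched without IP replicate 1 or Input replicate 2, and more without Input replicate 1 or IP replicate 2. The share of all tested genes enriched moved the same way in these fits. Fewer of the 33 were depleted without Input replicate 1 or IP replicate 2, and more without Input replicate 2. Without IP replicate 1 the number of the 33 depleted did not change. The share of all tested genes depleted fell without either IP library and rose without either Input. Of the 11 genes named with the largest changes, PHIP, MCM3 and MCM10 were called in every one of the 14 fits, and the other 8 lost their call in at least 1. KMT5A lost it in 5, TOPBP1 in 3, MCM7, GMNN and GINS1 in 2 each, and RIF1, TICRR and SKP2 in 1 each. Without Input replicate 1, SKP2 was at -0.79 and GINS1 at -0.86, and neither was called. The lists differ from the subunits in coding length, with medians of 2202 bases for helicase loading, 1722 for helicase activation and 1296 for partners and regulators. Of the tested protein-coding genes in class 8 of coding length, where 2202 bases falls, 14.9% were enriched. The part of length in the difference between lists and subunits was not tested.

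**Figure D4:**
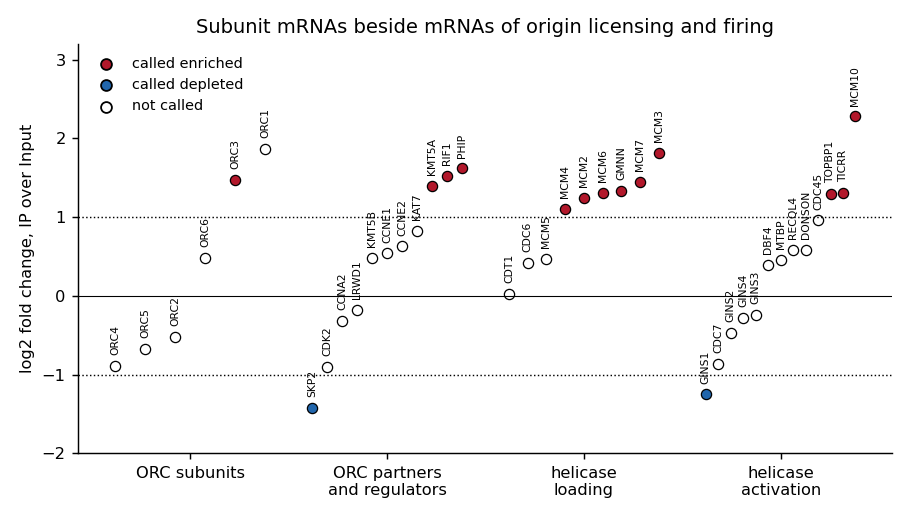
Log2 fold change of IP over Input for the 6 ORC subunits and the 33 genes of the 3 lists, each gene 1 point ordered by value within its list, red where called enriched, blue where called depleted and white where not called, with dotted lines at 1 and -1. Helicase loading has 6 of 9 points in red and none below 0, whereas the ORC subunits have 1 red point, ORC3, and 3 points below 0.

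The values depend on what the libraries are scaled to, and this decides several calls. With totals only as the scale, the median shift over all genes was -0.60, and ORC2 (-1.12), ORC4 (-1.50) and ORC5 (-1.28) were depleted and none of the 6 enriched. Then 22.2% of all tested genes were depleted and 2.59% enriched. ORC1 takes up to 1.61% of a library, but leaving it out of the library sizes and factors altered no call among the 6.

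ORC3 was enriched in 13 of the 14 fits, and the share of tested genes enriched differed among them. It was 9.75% with RLE factors, 7.37% with upper-quartile scaling, 8.78% with ORC1 left out of the scaling, 4.94% without a filter, 11.0% with a minimum of 1 CPM, 11.9% in DESeq2 and 10.5% in limma voom. When 1 library was left out it was 8.04% (IP replicate 1), 11.9% (Input replicate 1), 12.0% (IP replicate 2) and 9.23% (Input replicate 2). No subunit was depleted in 11 fits, and the share of tested genes depleted in these alternatives was 8.62% with RLE factors, 9.36% with ORC1 left out of the scaling, 5.05% without a filter, 9.58% with a minimum of 1 CPM, 10% in DESeq2 and 7.78% in limma voom. It was 5.27%, 9.5% and 6.65% without IP replicate 1, Input replicate 1 and IP replicate 2. ORC4 was depleted where 10.5% (upper-quartile scaling) and 11.8% (without Input replicate 2) of tested genes were.

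**Figure D5:**
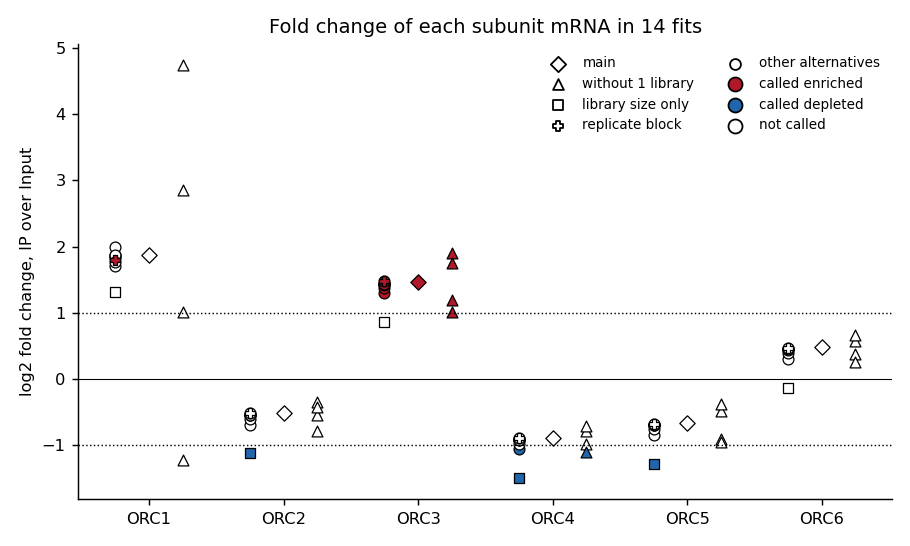
Log2 fold change of IP over Input for each ORC subunit in 14 fits, with a diamond for the model reported, triangles for fits without 1 library, a square for totals only as the scale, a plus sign for the replicate block and circles for the other alternatives, filled red where called enriched, blue where called depleted and white where not called. ORC3 is red in 13 fits, ORC1 ranges from -1.22 to 4.75 when 1 library is left out, and ORC2, ORC4 and ORC5 stay below 0 in every fit.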

How the data were processed

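RIP-seq was done on nuclei of transfected HCT116 cells, with ORC1-FLAG IP and Input libraries of 2 replicates. What the authors deposited is a table of read counts by Ensembl gene, not normalized. The study's methods and processing notes name Trimmomatic, STAR with hg19 and featureCounts. The annotation release, strand setting and handling of multimapping reads are not given in the sources used here.

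The test was edgeR's quasi-likelihood F test (version 4.0.16, under R 4.3.3), with robust dispersions, TMM (trimmed mean of M values) factors, filterByExpr and group as the only term, over 14645 genes. SE came from the fold change and F statistic. Gene models, lengths and transcripts are those of GENCODE v44 on GRCh38, another build than that of the counts, joined by gene identifier, and no coordinate was converted. Alternatives were RLE, library-size and upper-quartile scaling, scaling without ORC1, 2 other filters (none, or a minimum of 1 CPM in 2 libraries), voom of limma 3.58.1, DESeq2 1.42.0, leaving out each library, and a replicate block. The labels number each IP and Input by the same RIP replicate, and deviations from group means of same-numbered libraries correlated at Pearson r = 0.645 across genes, so the numbers were taken to pair the libraries. The model reported leaves this pairing out, with group alone because the study names no covariate for its test. The edgeR, DESeq2 and voom models with group alone were also run on simulated counts.

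The subunits, gene lists and tests were chosen with earlier results of these data known. Besides the subunits, up to 3 enriched and 3 depleted genes of each list and the 5 genes nearest in pattern to ORC1 and to the mean of ORC2 to ORC6 were named. Neighbouring genes, and listed genes given as not called, were named after their values were seen.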

Additional observations from a re-analysis of the deposited data

How the results depend on the processing

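The call of ORC3 changed with scaling by library size alone, at 0.86, and those of ORC2 (-1.12), ORC4 (-1.50) and ORC5 (-1.28) were gained there, as was that of ORC4 with upper-quartile scaling (-1.06). ORC6 turned to -0.13 with library size alone. These 2 scalings moved the median over all genes by -0.60 and -0.17. With the replicate block ORC1 was called, at 1.80, and the block changed no other call among the subunits. Leaving out 1 library gave ranges of -1.22 to 4.75 for ORC1, -0.79 to -0.35 for ORC2, 1.01 to 1.91 for ORC3, -1.11 to -0.71 for ORC4, -0.95 to -0.38 for ORC5 and 0.26 to 0.67 for ORC6. ORC1 was at -1.22 without IP replicate 2, where IP replicate 1 alone stands against both Inputs. In such fits the lone library is assumed to vary like the other group. Among all genes, library size alone called 380 enriched and 3257 depleted in place of 1542 and 1215, upper-quartile scaling called 1080 and 1542, and the replicate block called 1957 depleted. In the 33 licensing and firing genes, library size alone called 3 enriched and 4 depleted, and upper-quartile scaling 4 depleted. Leaving out 1 library gave 7 to 14 enriched and 0 to 4 depleted.

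Another pseudocount moved no replicate ratio of a subunit by more than the spread between replicates. The canonical transcript of ORC4 holds 4 GAAGAA matches in place of 5. In the model with group alone and TMM factors, ORC2, ORC5 and ORC6 did not pass the adjusted p of 0.05 with 2 libraries a group. ORC2 and ORC5 did pass it with library size alone and with upper-quartile scaling. With the replicate block the edgeR adjusted p of ORC2, ORC5 and ORC6 was 0.0101, 0.00229 and 0.0173, at sizes under the fold change minimum.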
